A study of Mus musculus with 12 samples.

Results

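A set of 10 genes of the splicing machinery is described here in ARG1+ and ARG1- microglia, out of 55487 genes in the deposited count table: the kinase genes Clk1, Clk2, Clk3 and Clk4, the cyclin genes Ccnl1 and Ccnl2, the arginine- and serine-rich protein gene Rsrp1, the U1 snRNP-associated gene Luc7l, and the transformer-2 genes Tra2a and Tra2b. They were taken by symbol as splicing regulators known for retained introns or poison exons, and they were chosen from genes whose ARG1+ and ARG1- levels in these same libraries had already been looked at. For these 10 genes, differences between ARG1+ and ARG1- microglia are therefore a description. No p is given for them, apart from an interaction with sex that is also a description. Which of them passed the limit of a fit across all genes is stated without being read as evidence. Other genes of the pathway are given with adjusted p-values of that fit. All 10 passed the filter on low counts that left 16908 genes for testing.

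RNA was sequenced from 12 libraries of microglia of YARG mice at postnatal day 13, a YFP reporter line. Cells positive for CX3CR1 and negative for CD206 were sorted from basal forebrain and striatal tissue pooled over several brains, as YFP+ (ARG1+) or YFP- (ARG1-), with 3 libraries from females and 3 from males in each population. Both populations carry the reporter and come from untreated mice, and the study's methods describe a sort of pooled tissue into the 2 populations, so ARG1+ and ARG1- libraries may share mice, but the labels do not say which. ARG1+ and ARG1- are labels of the YFP sort.

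CLK kinases sit in the nucleus and phosphorylate SR proteins, the serine- and arginine-rich factors that mark exons for the spliceosome. L-type cyclins partner CDK11 kinases at splicing speckles, LUC7-like proteins act with the U1 snRNP at the 5′ splice site, and TRA2 proteins bind exonic enhancers. Many of these genes keep part of their own RNA unproductive: some introns stay in polyadenylated transcripts that are held in the nucleus (detained introns), and some exons carry an early stop codon (poison exons) that sends the mRNA to nonsense-mediated decay. CLK activity is known to change the splicing of detained introns, those of Clk1 itself included. RSRP1 is a little-studied nuclear protein with an SR-like composition.

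The annotation (GENCODE M21, GRCm38) lists such transcripts for every one of the 10 genes. Retained-intron and decay transcripts were both annotated for 9 of 10, beside 22.4% of the protein-coding genes tested. Rsrp1 had a retained-intron transcript and none annotated for decay. The share of annotated exon length found only in these transcripts ran from 25.8% in Luc7l to 74.0% in Tra2a, against a median of 7.95% over the 12659 protein-coding genes tested. It was 63.8% in Clk1, 63.8% in Ccnl1, 62.2% in Clk4, 58.4% in Clk3, 57.8% in Tra2b, 56.8% in Clk2, 53.7% in Ccnl2 and 38.9% in Rsrp1. In 8 of the 10 genes the share was above 49.2%, the 90th percentile of those genes. Counts here are whole-gene counts, so reads from productive and unproductive transcripts of a gene are summed, and neither intron retention nor exon inclusion was measured.

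**Figure D1:**
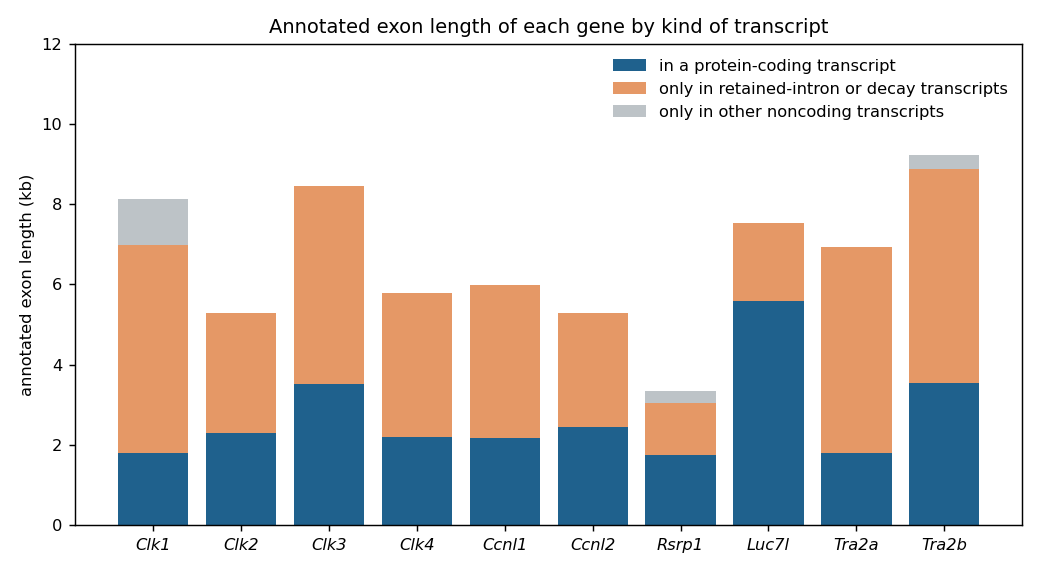
Annotated exon length of each gene in kilobases, as stacked bars from 0: exons found in a protein-coding transcript, exon bases found only in retained-intron or decay transcripts, and bases found only in other noncoding transcripts (GENCODE M21). In 8 of 10 genes the retained-intron and decay bases are more than 49.2% of the bar, and in Luc7l they are 25.8%.

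For 5 of the 10 genes, exons that set the decay transcripts apart from protein-coding ones are shown, because the decay fate of those transcripts is written in them. In Clk1, on the minus strand of chromosome 1, a 91-base exon at chr1:58420121-58420211 is skipped in decay transcripts, and both introns next to it, of 387 and 871 bases, are retained in other annotated transcripts. In Ccnl1 (chr3:65955246-65955276, minus strand), Ccnl2 (chr4:155818539-155818560, plus strand), Tra2a (chr6:49252965-49253108, minus strand) and Tra2b (chr16:22259181-22259261, minus strand) an exon of decay transcripts ends translation. No exon of a protein-coding transcript of the same gene overlaps it. For these 4 genes the sequence runs from the start of that exon to its premature stop codon, which is in capitals. All are read 5′ to 3′ on the gene's own strand from the GRCm38 genome.
Clk1 skipped exon: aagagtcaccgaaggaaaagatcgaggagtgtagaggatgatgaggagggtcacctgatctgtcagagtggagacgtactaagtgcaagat
Ccnl1 poison exon: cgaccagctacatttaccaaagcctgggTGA
Ccnl2 poison exon: ggtagcctctgagggtaagTGA
Tra2a poison exon: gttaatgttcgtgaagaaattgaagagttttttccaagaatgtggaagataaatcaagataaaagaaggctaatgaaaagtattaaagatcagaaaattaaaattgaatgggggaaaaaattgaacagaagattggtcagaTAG
Tra2b poison exon: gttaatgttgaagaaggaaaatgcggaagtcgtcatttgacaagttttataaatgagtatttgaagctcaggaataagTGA

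The Tra2a and Tra2b exons open with the same 9 bases, gttaatgtt, and the Ccnl2 stretch lies within an annotated retained intron of 2341 bases. The other annotated retained introns of the members, where a whole intron could be matched, ran from 87 bases in Clk1 to 2100 bases in Clk3. Luc7l had none that could be matched in this way.

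Levels are in CPM, counts scaled to a common library size with TMM factors, and were compared between the genes per kilobase of annotated exon. Rsrp1 stood far above the rest, with a mean level of 315 ± 75.8 CPM per kb in ARG1- and 774 ± 101 CPM per kb in ARG1+ microglia (SD, n = 6 libraries each). In ARG1- microglia the order of mean levels was Rsrp1, Clk1 (30.0 CPM per kb), Ccnl2 (24.7), Ccnl1 (18.3), Clk3 (14.7), Clk4 (14.3), Tra2b (9.79), Clk2 (7.86), Luc7l (7.66) and Tra2a (3.35). The ranges of neighbours in this order overlapped except for Rsrp1 against Clk1 and Luc7l against Tra2a. In ARG1+ microglia Ccnl2 took the second place with 57.7 CPM per kb, ahead of Clk1 with 40.8, although their ranges overlapped. Tra2b moved down to the ninth place with 5.51 CPM per kb, and Tra2a stayed last with 3.56. With lengths taken from protein-coding transcripts only, the first 4 genes in ARG1- microglia kept this order, while Clk3 and Clk4, and Luc7l and Tra2a, changed places. In ARG1+ microglia Clk1 then stood ahead of Ccnl2, with mean levels of 185 and 125 CPM per kb.

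Of the 10 genes, 5 were called higher in ARG1+ microglia, 1 was called lower and 4 did not pass the limit, where a call is an adjusted p under 0.05 in edgeR's fit across all genes with sex as a term. Over all genes tested 6.44% were called higher and 9.42% lower (15.9% in either direction), and since the genes were proposed from this contrast nothing is read from the difference. With 1 library left out these shares ran from 3.89% to 6.27% higher and from 5.83% to 8.73% lower. Over both directions 2682 genes were called, and 1753 (9.89%) without ARG1+ male replicate 12, 1803 without ARG1+ male replicate 16 and 1884 (10.5%) without ARG1+ female replicate 7. The share called higher was 4.14% without ARG1- female replicate 2, and the share called lower was 6.23% without ARG1+ female replicate 8. The median log2 fold change was 0.56 over the 10 genes and 0.06 over all genes tested. The genes called higher were Clk2, Ccnl1, Ccnl2, Rsrp1 and Luc7l, and the gene called lower was Tra2b. Luc7l was called in 7 of the 12 fits that left out 1 library. Clk2, Luc7l and Tra2b were not called in the libraries that the labels number 1 to 12 alone, where 1.76% of all genes were higher and 1.93% lower. In males alone no member was called, and 1 gene was called in all. In bulk RNA, fewer transcribing cells and less RNA per cell cannot be told apart.

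**Figure D2:**
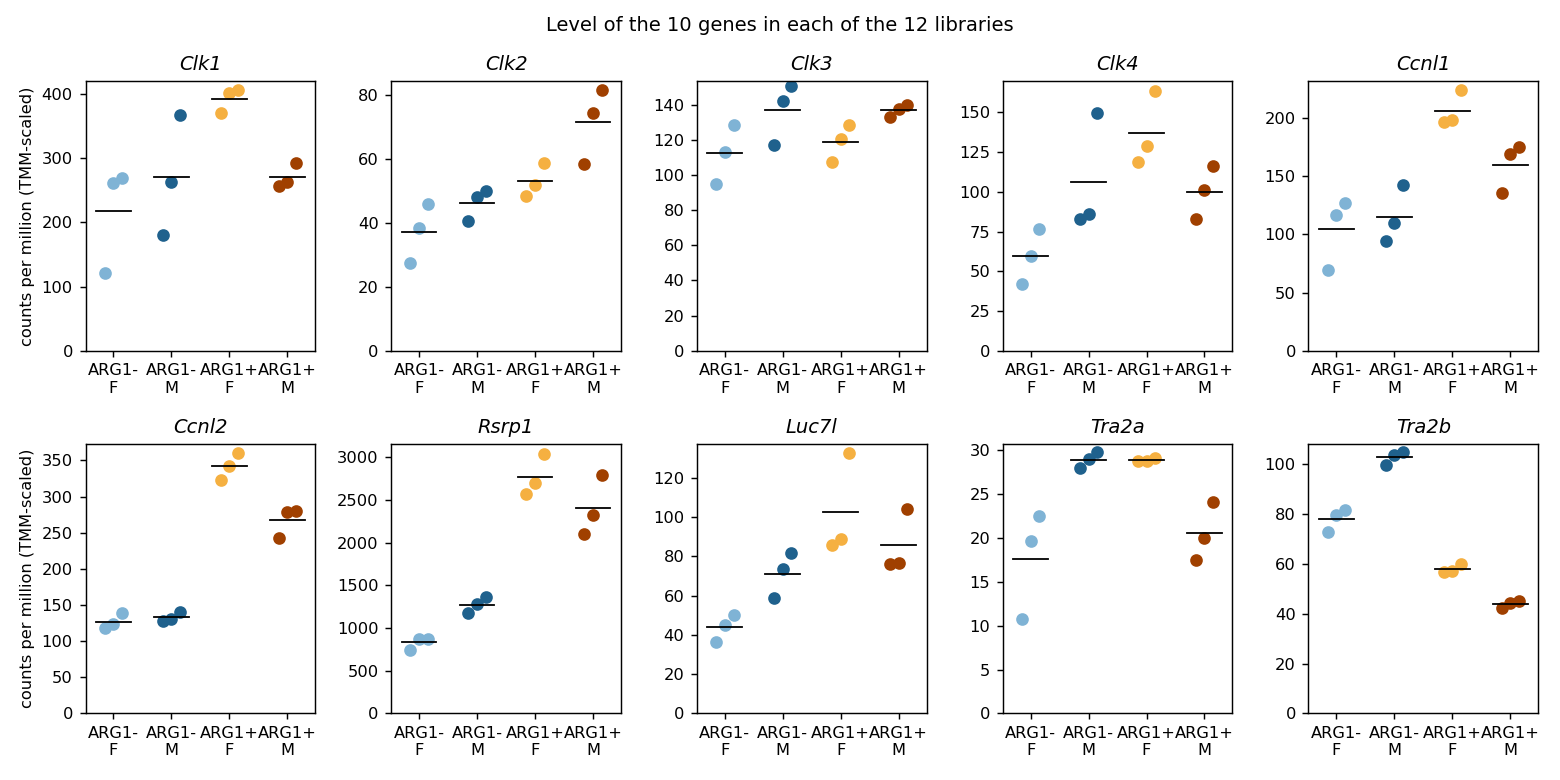
Level of each gene in CPM, with axes from 0, for the 3 libraries of each group (points) and their mean (line). Ccnl2 and Rsrp1 lie higher in all 6 ARG1+ than in all 6 ARG1- libraries and Tra2b lies lower, while Clk3 and Tra2a overlap.

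Of the kinase genes, Clk1 was at 120.8, 262 and 269 CPM in ARG1- females and at 370.01, 402 and 406 CPM in ARG1+ females. In males Clk1 was at 180.5, 263 and 368 CPM in ARG1- and at 257, 263 and 293 CPM in ARG1+ libraries. The 2 populations overlapped in males, and the log2 fold change was 0.85 (SE 0.29) in females and 0.01 (SE 0.29) in males. The difference between these 2 values, 0.85, was 0.55 without ARG1- female replicate 1 and 0.57 without ARG1- male replicate 14. Clk4, the closest relative of Clk1, was at 42.1, 59.8 and 76.6 CPM in ARG1- females and at 118, 129 and 164 CPM in ARG1+ females. In males it was at 82.8, 86.2 and 149.7 CPM in ARG1- and at 83.1, 101 and 116 CPM in ARG1+ libraries. Clk4 likewise overlapped in males, and its log2 fold change was 1.20 (SE 0.28) in females and -0.09 (SE 0.27) in males. The Clk4 difference between the sexes, 1.29, was 0.97 without ARG1- male replicate 14 and 1.09 without ARG1- female replicate 1.

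Clk2 ran from 27.4 to 49.8 CPM in ARG1- microglia with a median of 43.2, and from 48.4 to 81.5 CPM in ARG1+ microglia with a median of 58.6. It was 1.49-fold higher in ARG1+ microglia, by 0.51 (SE 0.21) on the log2 scale in females and by 0.63 (SE 0.21) in males. Within each sex the 2 populations did not overlap, but the share of all genes that separate so within a sex was not counted. Clk3 ran from 95.1 to 151 CPM in ARG1- and from 107 to 139.98 CPM in ARG1+ microglia, and its log2 fold change was 0.04 (SE 0.10), or -0.01 without ARG1- female replicate 2 and 0.10 without ARG1- male replicate 14. Clk3 is the gene of the 10 whose exons overlap another gene the most, since 15.2% of its exon length lies opposite Edc3, and reads there may belong to either gene because the library kit does not mark strand.

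Among the cyclins, Ccnl2 separated the populations without overlap. It was at 118, 124 and 139.5 CPM in ARG1- females, at 128, 131 and 140.3 CPM in ARG1- males, at 323, 343 and 361 CPM in ARG1+ females and at 243, 279 and 279.6 CPM in ARG1+ males. The SD over the 6 ARG1- libraries was 8.74 CPM, and every ARG1+ library was above all of them. Ccnl2 was 2.32-fold higher in ARG1+ microglia (log2 difference 1.22, SE 0.10). Ccnl1 was at 69.3, 117 and 127 CPM in ARG1- females and at 197, 199 and 224 CPM in ARG1+ females. In males it was at 94.0, 109.98 and 142 CPM in ARG1- and at 135, 169 and 176 CPM in ARG1+ libraries. Ccnl1 was 1.66-fold higher in ARG1+ microglia over both sexes, and the males overlapped through the highest ARG1- library. The antisense gene Gm37305 covers 7.37% of its exon length.

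Rsrp1 showed the widest gap of the 10 genes. It was at 747, 877 and 878 CPM in ARG1- females and at 1179, 1283 and 1366 CPM in ARG1- males. In ARG1+ libraries it was at 2576, 2701 and 3046 CPM in females and at 2097, 2328 and 2797 CPM in males. All ARG1+ libraries were above all ARG1- libraries, and the level was 2.50-fold higher (log2 fold change 1.32, SE 0.15). Luc7l was at 36.6, 45.3 and 49.95 CPM in ARG1- females and at 85.6, 89.0 and 133 CPM in ARG1+ females. In males it was at 58.6, 73.4 and 81.9 CPM in ARG1- and at 76.1, 76.5 and 104 CPM in ARG1+ libraries, which overlapped. Luc7l was 1.67-fold higher in ARG1+ microglia over both sexes.

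The transformer-2 genes differed from each other. Tra2b was at 72.9, 79.6 and 81.4 CPM in ARG1- females, at 99.6, 104 and 105 CPM in ARG1- males, at 56.6, 57.1 and 59.98 CPM in ARG1+ females and at 42.2, 44.1 and 45.3 CPM in ARG1+ males. All ARG1+ libraries were below all ARG1- libraries, and the ARG1+ level was 1.78-fold lower, a log2 difference of -0.83 with SE 0.14. Tra2a was at 10.7, 19.7 and 22.5 CPM in ARG1- females and at 28.8, 28.8 and 29.1 CPM in ARG1+ females, so that ARG1+ libraries were the higher ones. In males it was at 27.9, 29.0 and 29.8 CPM in ARG1- and at 17.5, 20.04 and 24.1 CPM in ARG1+ libraries, so that they were the lower ones. Such a split into opposite directions was seen in 0.656% of all genes tested. With both sexes pooled the Tra2a log2 fold change was 0.11 (SE 0.25), and it was -0.08 without ARG1- female replicate 1 and 0.26 without ARG1+ male replicate 12. Among all genes tested, 3.48% had all 6 ARG1+ libraries above all 6 ARG1- libraries, as Ccnl2 and Rsrp1 did, and 6.56% had them below, as Tra2b did. Nothing is read from these shares either.

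**Figure D3:**
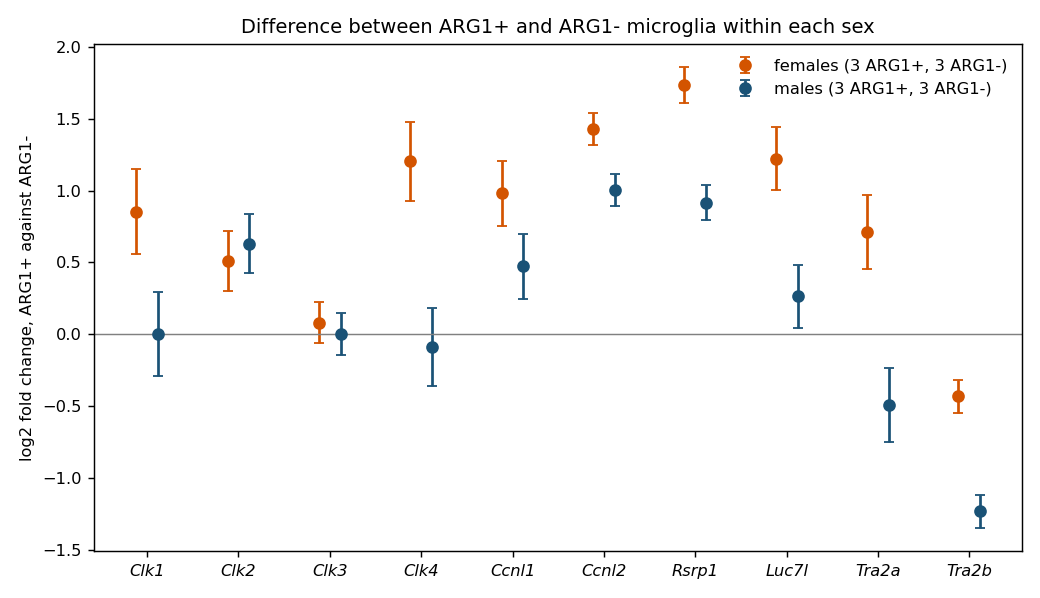
Log2 fold change of each gene between 3 ARG1+ and 3 ARG1- libraries of 1 sex, as points with SE bars from the fit of the 4 groups. Rsrp1 stands at 1.73 in females and 0.92 in males, Tra2a at 0.71 and -0.49, and Tra2b at -0.43 and -1.23.

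The rule did not use sex, so females and males were tested within each population. In ARG1- microglia all 10 estimates were below 0, meaning lower levels in females (that of Ccnl1 was 0.09 without ARG1- female replicate 1 and 0.03 without ARG1- male replicate 14), and their median was -0.36 on the log2 scale against 0.02 over all genes. The signs are not independent counts, since the same libraries enter each, and the share of all genes below 0 was not counted. None of the 10 passed an adjusted p of 0.05 in edgeR, where 16 of all genes did (0.0946%), or 48 without ARG1- male replicate 5, again with none of the 10. At an unadjusted p under 0.05 there were 5 (Clk4, Rsrp1, Luc7l, Tra2a and Tra2b), against 10% of all genes. DESeq2 called 2, Rsrp1 and Tra2b, against 2.10% of the genes it tested. Rsrp1 was at 834 CPM in females and 1276 CPM in males on average (n = 3 each), a log2 difference of -0.61 (SE 0.12, edgeR adjusted p = 0.183), and lower in all 3 females. The other 4 genes were also lower in all 3 females than in all 3 males, a pattern held by 4.72% of all genes. Their log2 differences were -0.84 (SE 0.27) for Clk4, -0.71 (SE 0.26) for Tra2a, -0.70 (SE 0.22) for Luc7l and -0.40 (SE 0.11) for Tra2b. That of Clk4 was -0.51 without ARG1- male replicate 14, and that of Tra2a was -0.45 without ARG1- female replicate 1.

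In ARG1+ microglia 8 of the 10 estimates were above 0, with Clk2 and Clk3 below, and the median was 0.36 beside -0.0018 over all genes tested. Here too the signs are not independent counts, and the share of all genes above 0 was not counted. No member passed the adjusted limit in edgeR, as for all but 6 genes (0.0355%). Ccnl2 and Tra2b had an unadjusted p under 0.05, which 3.12% of all genes had, and DESeq2 called Tra2b against 0.131% of the genes it tested. Tra2b was at 57.9 CPM in females and 43.9 CPM in males (log2 difference 0.40, SE 0.11, edgeR adjusted p = 1). Ccnl2 was at 342 CPM in females and 267 CPM in males (log2 difference 0.36, SE 0.11). All 3 females were above all 3 males for Clk1, Clk4, Ccnl1, Ccnl2, Tra2a and Tra2b, and 6.18% of all genes showed this. Clk3 was at 107 to 128 CPM in females and 133 to 139.98 CPM in males (log2 difference -0.20, SE 0.14). Clk4, Tra2a and Tra2b were thus lower in all females of one population and higher in all females of the other, as 1.05% of all genes were.

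The difference between the sexes in the ARG1+ against ARG1- comparison was fitted as an interaction. It is built from ARG1+ and ARG1- levels that had already been looked at when the genes were chosen. Its counts, p-values and intervals for the members are therefore a description and are not read as evidence. The estimate was above 0 for 9 of 10 members, Clk2 being the other, and for 48.1% of all genes. Single libraries turned the signs nearest 0: Clk2 was at 0.05 without ARG1- female replicate 1 and at 0.02 without ARG1+ male replicate 11, and Clk3 at -0.03 without ARG1- female replicate 2. No member and no other gene passed the adjusted limit in edgeR (0%), where 10 other genes did without ARG1- male replicate 5 and 3 without ARG1- female replicate 13, and 6 members had an unadjusted p under 0.05 (Clk4, Ccnl2, Rsrp1, Luc7l, Tra2a and Tra2b) against 9.32% of all genes. DESeq2 called 3 members, Rsrp1, Tra2a and Tra2b, against 1.57% of the genes it tested. For Tra2b the interaction was 0.80 on the log2 scale (95% interval 0.45 to 1.15, edgeR adjusted p = 0.242), and for Rsrp1 it was 0.82 (0.44 to 1.19, adjusted p = 0.277). The intervals of Clk1 (-0.06 to 1.75), Clk2 (-0.76 to 0.52), Clk3 (-0.37 to 0.53) and Ccnl1 (-0.19 to 1.21) took in 0. The signs of the members are not independent counts, since the same 12 libraries enter each. Across members, the ARG1- female library of replicate 1 had the lowest median level, 0.99 below the members' own means on the log2 scale, and the ARG1- male library of replicate 14 was 0.23 above them, which is more than the 0.10 of the ARG1+ male library of replicate 16.

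**Figure D4:**
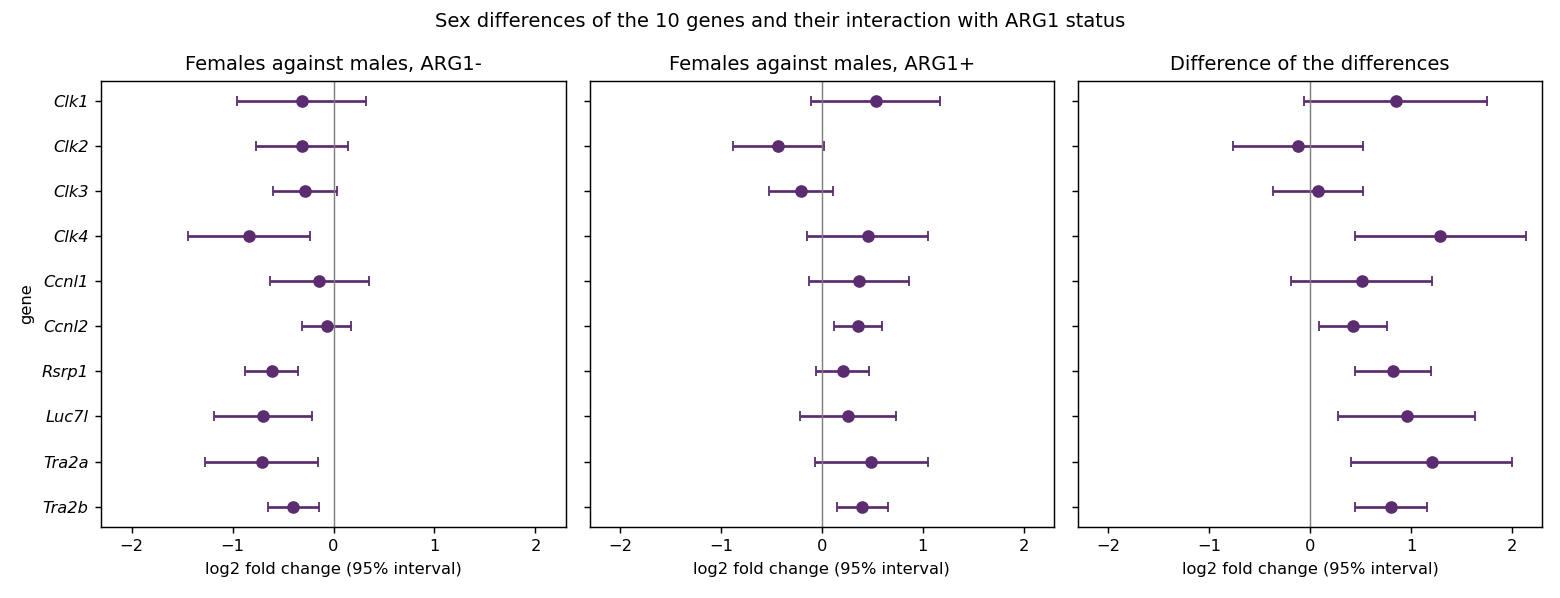
Log2 differences between females and males in ARG1- (left) and ARG1+ microglia (middle), and the difference of the ARG1 differences between the sexes (right), as points with 95% intervals from the edgeR fit, without adjustment for the number of genes. All 10 points lie below 0 on the left, and 9 of 10 lie above 0 on the right.

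The other genes of splicing and RNA decay were taken as 7 lists of 128 genes, of which 126 were tested. In ARG1+ microglia 22 rose, 5 fell and 99 did not pass the limit, which is 17.5% higher and 3.97% lower beside the 6.44% and 9.42% of all genes tested. Their median log2 fold change was 0.19. A further 2 lists hold genes that respond to stress, of which 3 of 29 tested rose and 1 fell. The lists were also written with results of these data known, so the counts describe them and are not independent evidence of a direction.

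Kinases and transcription cyclins near the CLK family had 3 of 19 tested genes higher (15.8%) and none lower, with a median of 0.37. Without ARG1- male replicate 14 there were 6. Srpk3, an SR protein kinase, rose by 0.88 on the log2 scale (SE 0.18, adjusted p = 0.00734), Hipk2, a kinase related to the DYRK family, by 1.05 (SE 0.22), and Cdk11b, the kinase that L-type cyclins bind, by 0.84 (SE 0.20). Cdk9, the kinase of the elongation factor P-TEFb and the most abundant of the list, was at 148 ± 14.9 CPM in ARG1- and 140.2 ± 23.0 CPM in ARG1+ microglia (SD, n = 6 each).

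Of 10 SR protein genes tested, 2 rose (20%) and none fell, with a median of 0.06, and the number higher was 1 in 7 of 12 fits without 1 library. Srsf5 rose from 262 ± 66.0 to 497 ± 96.6 CPM (SD, n = 6 each, adjusted p = 0.00576) and Srsf11 rose by a log2 fold change of 0.47 (SE 0.14). For Srsf2 the log2 difference of 0.26 (SE 0.10) did not pass (adjusted p = 0.114). The other SR-related and LUC7 genes had 9 of 30 higher (30%) and 1 lower, with a median of 0.40. Without ARG1- female replicate 2 the number higher was 5, and it was at most 11 with 1 library left out. The splicing coactivators Srrm1 and Srrm2 rose by 1.11 (SE 0.15) and 0.76 (SE 0.13), Srrm1 from between 57.7 and 75.2 CPM to between 112 and 195 CPM. The others that rose were Son, Pnisr, Pnn, Scaf4, Sfswap, Snrnp70 and Arglu1, and U2af1, which reads the 3′ splice site, fell by 0.91 on the log2 scale (SE 0.19). Rbm39, the most abundant, was at 320.3 ± 76.3 CPM in ARG1- and 390.4 ± 52.4 CPM in ARG1+ microglia and did not pass the limit.

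Among 30 other genes described with retained introns or poison exons, 4 rose (13.3%) and 1 fell, with a median of 0.17. Without ARG1- male replicate 14 there were 8 higher, and the 1 lower, Hnrnpl, was not called in 8 of the 12 fits that left out 1 library. Oga, which removes O-GlcNAc from proteins, rose by 0.53 (SE 0.12). Fnbp4 and Wsb1 also rose, Wsb1 from 335 ± 44.3 to 466 ± 65.1 CPM. The most abundant was Ddx5, an RNA helicase, where a log2 difference of 0.36 (SE 0.11) did not pass (adjusted p = 0.0511). Hnrnpl fell by 0.36 (SE 0.10).

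In the list of nonsense-mediated decay and the exon junction complex, 1 of 16 genes rose (6.25%) and 2 fell (12.5%), close to the shares over all genes, and 1 fell without ARG1+ female replicate 7 or 8 or ARG1+ male replicate 12 or 16. Smg5, a decay factor that binds phosphorylated UPF1, rose by 0.85 (SE 0.15). The core exon junction subunits Eif4a3 and Magoh fell by 0.70 (SE 0.09) and 0.94 (SE 0.23). Eif4a3 went from between 175 and 214 CPM in ARG1- to between 108 and 136 CPM in ARG1+ libraries. In nuclear RNA decay 2 of 16 rose (12.5%) and 1 fell (6.25%), and the number lower was 0 in 8 of the 12 fits that left out 1 library and 2 without ARG1- female replicate 13. Pabpn1, the nuclear poly(A)-binding protein, rose by 1.03 (SE 0.17), Zfc3h1, which leads polyadenylated nuclear RNA to the exosome, by 0.74 (SE 0.15), and the exosome subunit gene Exosc3 fell by 0.59 (SE 0.16). For Rbm7, the most abundant, the log2 difference was -0.39 (SE 0.15) and did not pass (adjusted p = 0.0922).

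Of 7 nuclear-retained noncoding RNAs 1 rose, or 2 without ARG1+ male replicate 16. Neat1, the RNA of paraspeckles, went from between 1.89 and 12.6 CPM to between 34.9 and 56.7 CPM. Malat1, the abundant RNA of nuclear speckles, was at 468 to 1346 CPM in ARG1- and 734 to 2524 CPM in ARG1+ libraries (log2 difference 0.92 with SE 0.31, adjusted p = 0.0661). Meg3 was at most 11.9 CPM and did not pass.

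Genes that respond to handling or stress were read beside these. Of 17 immediate early genes tested 2 rose, Egr1 from between 3.53 and 13.01 CPM to between 14.7 and 22.6 CPM, and Atf3 by a log2 fold change of 0.99 (SE 0.30). Nr4a1 was at most 8.12 CPM, and Btg2, the most abundant, had a log2 fold change of 0.09 (SE 0.15). The number higher was 1 in 7 of 12 fits without 1 library, and 3 without ARG1- male replicate 5. Of 12 heat shock genes, Hspe1 fell by 1.09 (SE 0.21) and Hspb1 passed the limit as higher from levels of at most 0.0300 CPM in ARG1- and between 0.171 and 1.60 CPM in ARG1+ libraries. There were 2 heat shock genes higher without ARG1- female replicate 1 and 2 lower without ARG1- male replicate 5. Hspa1b was at most 2.35 CPM in any library, and Hspa5, the most abundant, had a log2 fold change of 0.12 (SE 0.12). Their part in the members' values was not tested.

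**Figure D5:**
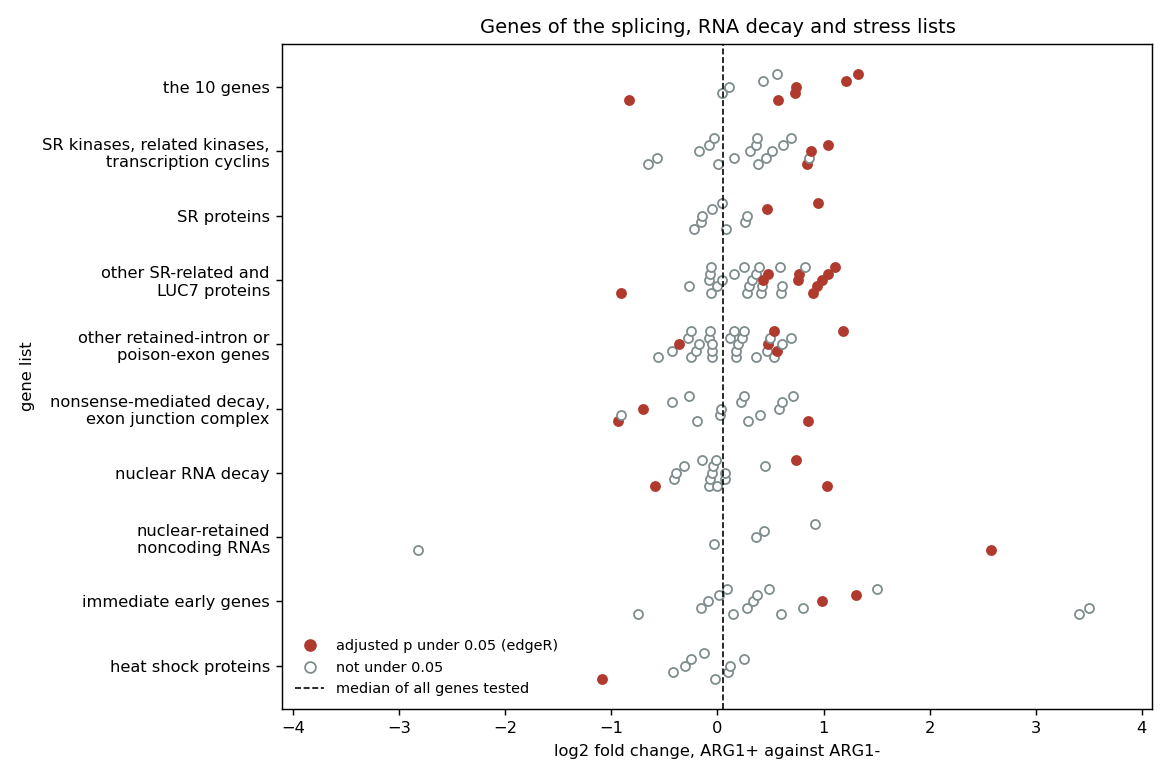
Log2 fold change between ARG1+ and ARG1- microglia for the 10 genes and the genes of the 9 lists, with filled points for an adjusted p under 0.05 in edgeR. The 4 list genes with fewer than 100 counts in every library are left out, and the dashed line is the median of all genes tested, 0.06. Filled points right of the line outnumber those on its left in each list but nonsense-mediated decay and heat shock.

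The libraries held 28356659 to 60625170 counts, and the lowest count of any member in any library was 357, for Tra2a. Several properties of the libraries went with ARG1 status. The mitochondrial share of counts was 0.247% to 0.636% in ARG1- and 0.147% to 0.396% in ARG1+ libraries, the Malat1 share 0.0424% to 0.138% and 0.0728% to 0.261%, and the number of genes with a count 17846 to 19844 and 19018 to 21734. Of the microglia markers 7 of 7 were tested and all were detected, with a summed level of 39365 to 56039 CPM in ARG1- and 33239 to 43862 CPM in ARG1+ libraries, where 4 fell (P2ry12, Tmem119, Fcrls and Siglech) and 1 rose (Sall1). Border macrophage markers summed to 106 to 141 and 109 to 235.4 CPM, nearly all of it Mrc1, with Cd209f at 0 throughout and Cd163, Lyve1 and Clec10a at 0 in all ARG1- libraries. Monocyte and neutrophil markers summed to at most 13.4 and 6.43 CPM (1 of 2 tested lower, Plac8), with Chil3 and Ly6g at 0. Neuron markers summed to at most 20.3 and 11.1 CPM. Oligodendrocyte lineage markers summed to 87.3 to 183 and 57.1 to 124 CPM. Astrocyte markers summed to 164 to 220 and 128 to 147 CPM, nearly all of it Slc1a3, the 1 of 7 that was lower. Endothelial and mural markers summed to 29.8 to 58.9 and 45.2 to 83.6 CPM, most of it Pecam1, with Cldn5 at 0. The part of these values in the members' differences was not tested.

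The 6 genes outside the 10 whose levels followed the members' median profile over the 12 libraries most closely were Cd33, Ints6l, Hnrnph1, Gripap1, Tia1 and Atrx. Likeness was the root mean square difference between log2 CPM profiles centred on their own means, among 8944 genes with a mean of at least 10 CPM. It was 0.14 for Cd33 and Ints6l, 0.15 for Hnrnph1 and 0.18 for the other three. The members themselves stood at 0.19 for Ccnl1 to 0.73 for Tra2b from that profile. Hnrnph1 and Tia1 are also in the list of genes described with retained introns or poison exons.

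Promoter windows were read for 8 of the 10 genes from RefSeq (GRCm38.p6), each from 250 bases before to 50 bases after the start, and for Clk1 and Luc7l none was matched. All 8 were rich in CpG, with 22 to 37 CpG in the window against a median of 7 over all 32851 windows. Of 8 motifs searched on both strands, TGACG was found in 8 of 8 windows and in 20.8% of all windows, or 37.0% of the 7588 windows with at least 22 CpG. The palindrome TGACGTCA, which holds TGACG on both strands, was found in Ccnl1, Clk4 and Tra2a, against 1.79% of all windows and 3.90% of those rich in CpG. GGGCGG was found in 8 of 8, against 35.7% and 82.6%, and TATAAA in none, against 13.6% of all windows. CCAAT was found in 4 of 8, against 37.4%, CCGGAAG in 2, against 8.86%, CACGTG in 1, against 7.15%, and GAANNTTC in 1, against 7.86%. A match is a description of letters and not a site.

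The 250 bases before the start are shown for the 3 genes whose populations did not overlap, Ccnl2 (chr4:155812239-155812488, plus strand), Rsrp1 (chr4:134923375-134923624, plus strand) and Tra2b (chr16:22266006-22266255, minus strand), and for Ccnl1 (chr3:65958250-65958499, minus strand), which has the palindrome. Capitals mark TGACG, its reverse complement CGTCA or the palindrome, 5′ to 3′ on the gene's strand.
Ccnl2 promoter: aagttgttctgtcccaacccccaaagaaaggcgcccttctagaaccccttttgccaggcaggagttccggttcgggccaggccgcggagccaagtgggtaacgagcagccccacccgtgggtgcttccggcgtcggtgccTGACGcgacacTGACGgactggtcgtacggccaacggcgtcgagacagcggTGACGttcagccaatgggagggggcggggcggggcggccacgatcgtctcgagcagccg
Rsrp1 promoter: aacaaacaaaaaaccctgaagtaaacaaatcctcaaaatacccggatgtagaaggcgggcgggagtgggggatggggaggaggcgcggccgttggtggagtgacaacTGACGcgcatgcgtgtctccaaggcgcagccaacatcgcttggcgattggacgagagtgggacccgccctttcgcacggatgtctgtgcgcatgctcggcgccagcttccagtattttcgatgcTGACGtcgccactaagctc
Tra2b promoter: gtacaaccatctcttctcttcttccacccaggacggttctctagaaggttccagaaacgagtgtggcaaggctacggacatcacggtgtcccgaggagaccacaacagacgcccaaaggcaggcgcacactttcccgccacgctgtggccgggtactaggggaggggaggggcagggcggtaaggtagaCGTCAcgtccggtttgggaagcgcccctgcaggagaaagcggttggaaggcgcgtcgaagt
Ccnl1 promoter: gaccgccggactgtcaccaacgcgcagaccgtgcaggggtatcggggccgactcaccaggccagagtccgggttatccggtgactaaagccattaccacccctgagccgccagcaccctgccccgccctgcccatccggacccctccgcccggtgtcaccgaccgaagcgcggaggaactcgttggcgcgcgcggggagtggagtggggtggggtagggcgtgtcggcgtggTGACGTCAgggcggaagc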

How the data were processed

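The authors sorted the cells, made full-length cDNA with SMART-Seq v4, aligned single-end reads to GRCm38 with STAR 2.6.1d and counted them per gene with featureCounts 1.5.1, per the labels and the study's methods. The deposited table holds raw counts for 12 libraries and 55487 Ensembl genes, and its strand setting and annotation release are not given in the sources used here. Gene names, exon lengths and transcript kinds were taken from GENCODE M21, which matched 55141 IDs. Counts were tested with edgeR 4.0.16 in R 4.3.3 (filterByExpr over the 4 groups, TMM factors, quasi-likelihood test, Benjamini-Hochberg adjustment over 16908 genes, limit 0.05), with sex and ARG1 status as terms, or with 4 group means for the comparisons of the sexes and the interaction. DESeq2 1.42.0 (Wald test), other factors and filters, thinned counts, each sex alone and each library left out were the alternatives. CPM are TMM-scaled. Total counts ran from 28356659 to 60625170. No pair of libraries of 1 group matched within counting noise (chi-square per degree of freedom 40.7 to 125, 12 pairs), so none was merged as a repeat deposit of another, which does not show that they are independent. Each library comes from a pool of several brains, and p-values measure the spread between libraries. The fits did not pair ARG1+ with ARG1- libraries. Where such libraries share a pool, they were treated as if they were independent.

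The members and lists were chosen with earlier results of these data known. Named genes are all members, in each list the 3 with the smallest p and the 1 of highest mean CPM, and the 6 most alike; other genes that passed in the SR-related list, and markers, were named after their values were seen.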

Additional observations from a re-analysis of the deposited data

Results flagged for a closer look

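Among 98 groups of 6 libraries, 2 for each of the 49 genes named by rule, 4 held a library far from the other 5, where chance gives about 4.9 (1 in 20). Atf3 was at 34.8 CPM in ARG1- female replicate 2, and the next library was at 17.9 CPM. Hspb1 was at 0.0300 CPM in ARG1- female replicate 1, with the other 5 ARG1- libraries at 0, and at 1.60 CPM in ARG1+ female replicate 8, with the next at 0.609 CPM. Hspa1b was at 2.35 CPM in the same ARG1+ library, with the next at 0.952 CPM. None of the 10 members had such a library.

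Tra2a was higher in all 3 ARG1+ than in all 3 ARG1- libraries of females and lower in all 3 of males, with an interaction of 1.20 on the log2 scale (edgeR adjusted p = 0.456). Of all genes tested, 0.656% separated in opposite directions in this way. Seen from the other side, females were below all males in ARG1- and above all males in ARG1+ microglia for Clk4 (interaction 1.29, adjusted p = 0.456), Tra2a (1.20) and Tra2b (0.80, adjusted p = 0.242), as for 1.05% of all genes tested.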

How the results depend on the processing

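With other factors, other filters, thinned counts, no sex term, a term for the libraries the labels number 13 to 16, or DESeq2, the same 5 members were called higher and Tra2b lower. Of all genes, 11.8% were called higher and 10.8% lower with DESeq2, a balance opposite to that of the main fit. These shares were 11% and 13.5% with at least 10 counts in every library, and 3.36% and 3.7% with no filter. In the other fits just named they were 6.31% to 7.16% higher and 8.39% to 9.91% lower. Members called higher numbered 0 in males alone, where 1 gene in all was called, and 3 in the libraries numbered 1 to 12 alone (Ccnl1, Ccnl2 and Rsrp1), where 1.76% of all genes were; females alone also gave 5, with Clk4 called and Clk2 not, beside 3.05% of all genes; members called lower numbered 0 in females alone, in males alone and in libraries 1 to 12, beside 3.39%, 0% and 1.93% of all genes. Leaving out 1 library gave 4 to 6 members higher and 1 lower, beside 3.89% to 6.27% and 5.83% to 8.73% of all genes: Luc7l was not called without ARG1- female replicate 1, 2 or 13, ARG1- male replicate 5 or ARG1+ male replicate 12, and Clk4 was called without ARG1- male replicate 14. The members' median log2 fold change was 0.93 in females, 0.13 in males and 0.74 in libraries 1 to 12, and 0.48 to 0.71 with 1 library left out. List genes called higher numbered 47 with DESeq2, 0 in males alone and 13 in libraries 1 to 12, and 19 to 33 with 1 library left out; those called lower numbered 2 in females alone, 0 in males alone and 1 in libraries 1 to 12, and 3 to 7 with 1 library left out, with 3 without ARG1+ female replicate 7 or 8 or ARG1+ male replicate 16. DESeq2 called 2 members between the sexes in ARG1- microglia, 1 in ARG1+ microglia and 3 in the interaction, where edgeR called 0 in every setting run. Genes called in the ARG1 contrast ran from 1 in males alone to 4131 with DESeq2, and from 1753 to 2669 with 1 library left out. The cause of these changes was not tested, beyond the fewer libraries in some fits. Length-scaled levels rose for every member with protein-coding exons alone, which are shorter. No paired analysis was possible because the labels give no number that 2 groups share, and whether libraries of the 2 populations come from the same pools is not settled by them.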
